A study of Mus musculus with 9 samples.

Results

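The genes described here encode the machinery that breaks down fatty acids in mitochondria and peroxisomes, with 2 enzymes of ketone body synthesis. A list of 35 genes was matched by symbol, and a gene was kept when its overall mean reached at least 10 normalised reads in both deposited tables. All 35 of 35 listed genes met this rule, of 16521 genes in the tables, and the member nearest the bound was Etfb, whose lower overall mean was 33.7, followed by Ppargc1a at 254. Liver RNA of C57BL/6 mice was sequenced in 3 groups of 3 samples. SAR mice received a methionine-choline-deficient (MCD) diet and a high dose of SAR (sarsasapogenin, a plant steroid), whose amount the labels do not give. Model mice received the MCD diet alone, and normal mice were given saline. The labels give neither the age of the mice nor the length of treatment. They do not say that samples are separate mice, so p-values measure the spread between samples, which may be technical. The MCD diet deprives the liver of nutrients used to secrete fat as lipoproteins and is a common mouse model of fatty liver with inflammation.

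A fatty acid is first joined to coenzyme A by an acyl-CoA synthetase such as Acsl1. Long chains enter mitochondria as carnitine esters through Cpt1a, Slc25a20 and Cpt2, and are then shortened in a repeating spiral of dehydrogenation, hydration, dehydrogenation and thiolysis, whose first step hands electrons to Etfa, Etfb and Etfdh. Peroxisomes run a parallel spiral with their own enzymes for very long and branched chains and for bile acid side chains, and hand the shortened products on as carnitine esters. In the liver much of the resulting acetyl-CoA becomes ketone bodies, and the receptor PPARalpha (Ppara) switches on many of these genes in fasting.

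Values per library were recovered from the deposited group means. Within a group the letters a, b and c run by decreasing size factor and do not stand for replicate numbers. Between 6360760 and 9537683 reads per library could be assigned, spread over genes that held 53.4%, 64.3% and 50.9% of the summed signal in the SAR, model and normal groups, because the most abundant genes could not be split between libraries. Of the 35 members, 33 were recovered in all 9 libraries, and Ehhadh and Acsl1 were recovered in the SAR and model libraries only. A normalised read is a read divided by the size factor of its own library, on a scale common to the 9 libraries. Model library c and normal library c stood apart. Across 12291 genes, which are not independent replicates, their log2 values correlated at 0.928 and 0.940 and at 0.934 and 0.925 with the other libraries of their groups, against 0.980 and 0.977 between those other libraries. In model library c 33 of 35 members were the highest of the group, by a median of 0.90 on the log2 scale, and in normal library c 29 of 33 were the lowest of the group, by a median of 0.52. The labelled tissue fitted its markers, with the hepatocyte transcription factor Hnf4a at a mean of 10919 normalised reads in SAR, 4767 in model and 12145 in normal libraries.

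Cell type markers moved with the groups. Of 12 hepatocyte markers, 3 were tested per library in model against normal, and all 3 were lower, against 19.1% of all genes. Hnf4a ran from 10118 to 12140 normalised reads in SAR, 4130 to 5162 in model and 11711 to 12692 in normal libraries. Cebpa ran from 3154 to 3625 in SAR, 1501 to 2143 in model and 2713 to 3628 in normal libraries. A further 9 hepatocyte markers were not recovered in normal libraries. Of these, the authors' deposited table called 8 higher in SAR than in model liver, against 6.79% of its genes. It called 7 lower in model than in normal liver, against 10.3% of its genes. The plasma protein genes Alb and Ttr did not pass in model against normal in the authors' deposited table, at log2 -0.19 (adjusted p = 0.862) and -0.31 (adjusted p = 0.558). Summed levels of 10 macrophage markers ran from 5856 to 8494 in SAR, 20678 to 23230 in model and 4609 to 4872 in normal libraries. Of these 10, 8 were higher in model than in normal liver, 1 was lower and 1 did not pass. Of all genes tested, 20% were higher and 19.1% lower. Clec4f was lower in model liver in the authors' deposited table (log2 -1.11, adjusted p = 0.000222). For 8 stellate cell markers the sums were 2086 to 4696 in SAR, 6939 to 24755 in model and 638 to 2104 in normal libraries, with the lowest of the model values in library c. The 7 cholangiocyte markers summed to 759 to 1686 in SAR, 1980 to 10831 in model and 463 to 835 in normal libraries, and 6 T and NK cell markers to 134 to 249, 431 to 597 and 70.1 to 108. The 8 neutrophil markers summed to 1407 to 2061 in SAR and 9806 to 13480 in model libraries, and to 187, 473 and 47661 in normal libraries a, b and c. By deposited mean, most of the neutrophil signal was Lcn2, at 10567 in model and 15317 in normal liver. The deposited means of Csf3r and Cxcr2 were instead higher in model than in normal liver, and those of the other neutrophil markers were lower. These normal means include the high values of normal library c. In the fit on values per library, all 7 neutrophil markers tested had a positive log2 fold change in model against normal. Of these 7, 1 passed as higher and 6 did not pass. No marker in any of the sums above was at 0 throughout a group. In bulk liver, fewer cells of a type and less RNA per cell cannot be told apart, and the part of these shifts in the results below was not tested.

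Model liver was compared with normal liver to find what differed with the MCD diet. Among the fatty acid oxidation genes, members of both organelles fell in model liver, and many others did not pass the test. Of 33 members tested, 17 were lower, 0 were higher and 16 did not pass a limma adjusted p of 0.05 (Benjamini-Hochberg over 12562 genes), whereas 19.1% of all genes tested were lower and 20% higher. The median log2 fold change of the members was -0.97, against 0.03 over all genes tested. All 3 model libraries lay below all 3 normal libraries for 18 of 33 members, a pattern seen in 26.7% of all genes. The unadjusted test also found 0 members higher at p under 0.05, and the authors' deposited table called 19 of 35 members lower and 0 higher, with 10.3% of its genes lower. Without normal library c and model library c, an alternative chosen after seeing the data, 29 members were lower, against 28.1% of all genes, and without model library b 5 were lower, against 9.49%. Cpt2, Acadvl, Hadha, Etfdh and Acox2 remained lower whichever 1 of the 6 libraries was left out. The other 12 lost their call without at least 1 library. Unless stated otherwise below, the call was lost whichever of normal libraries a and b and model libraries a and b was left out.

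SAR liver was compared with model liver to find what differed with the compound under the same diet. Here 16 of 35 members were higher, 1 was lower and 18 did not pass, against 13.2% of all 12468 genes higher and 16.2% lower. The log2 fold change was positive in 34 of 35 members, with a median of 0.81 against 0.01 over all genes. All 3 SAR libraries lay above all 3 model libraries for 10 members, as they did for 21% of all genes. Of the 16 higher members, 6 had an adjusted p of at least 0.045. Without model library c 29 members were higher, against 20.5% of all genes, and without model library b 3 were, against 5.1%. Cpt2, Acox2 and Acsl1 remained higher whichever library was left out. Unless stated otherwise below, the other 13 lost their call whichever of model libraries a and b and SAR libraries b and c was left out. Eci1 lost its call without model library b only. The authors' deposited table called 11 members higher and 0 lower, with 6.79% and 9.76% of its genes called in these directions. Both comparisons use the same model libraries, so their directions are not independent, and values are given side by side.

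**Figure D1:**
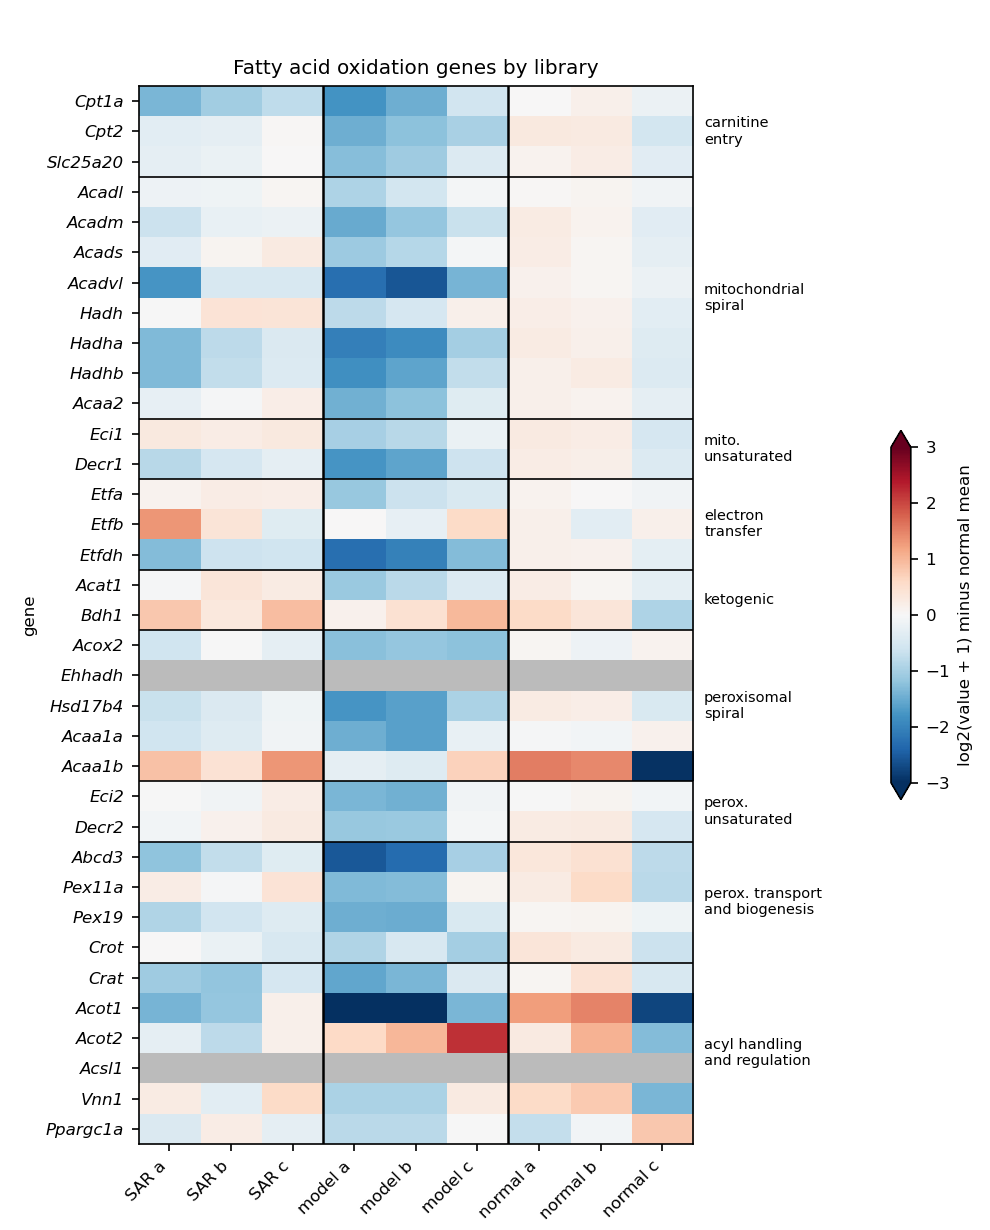
Heat map of the 35 members (rows, by role) in the 9 libraries (columns, SAR, model, normal), coloured by log2(normalised reads + 1) minus the member's mean over the normal libraries, with grey rows for Ehhadh and Acsl1, which were not recovered in normal libraries. Model libraries a and b are blue in most rows, model library c less so, and normal library c is the lowest normal library for 29 of 33 members.

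**Figure D2:**
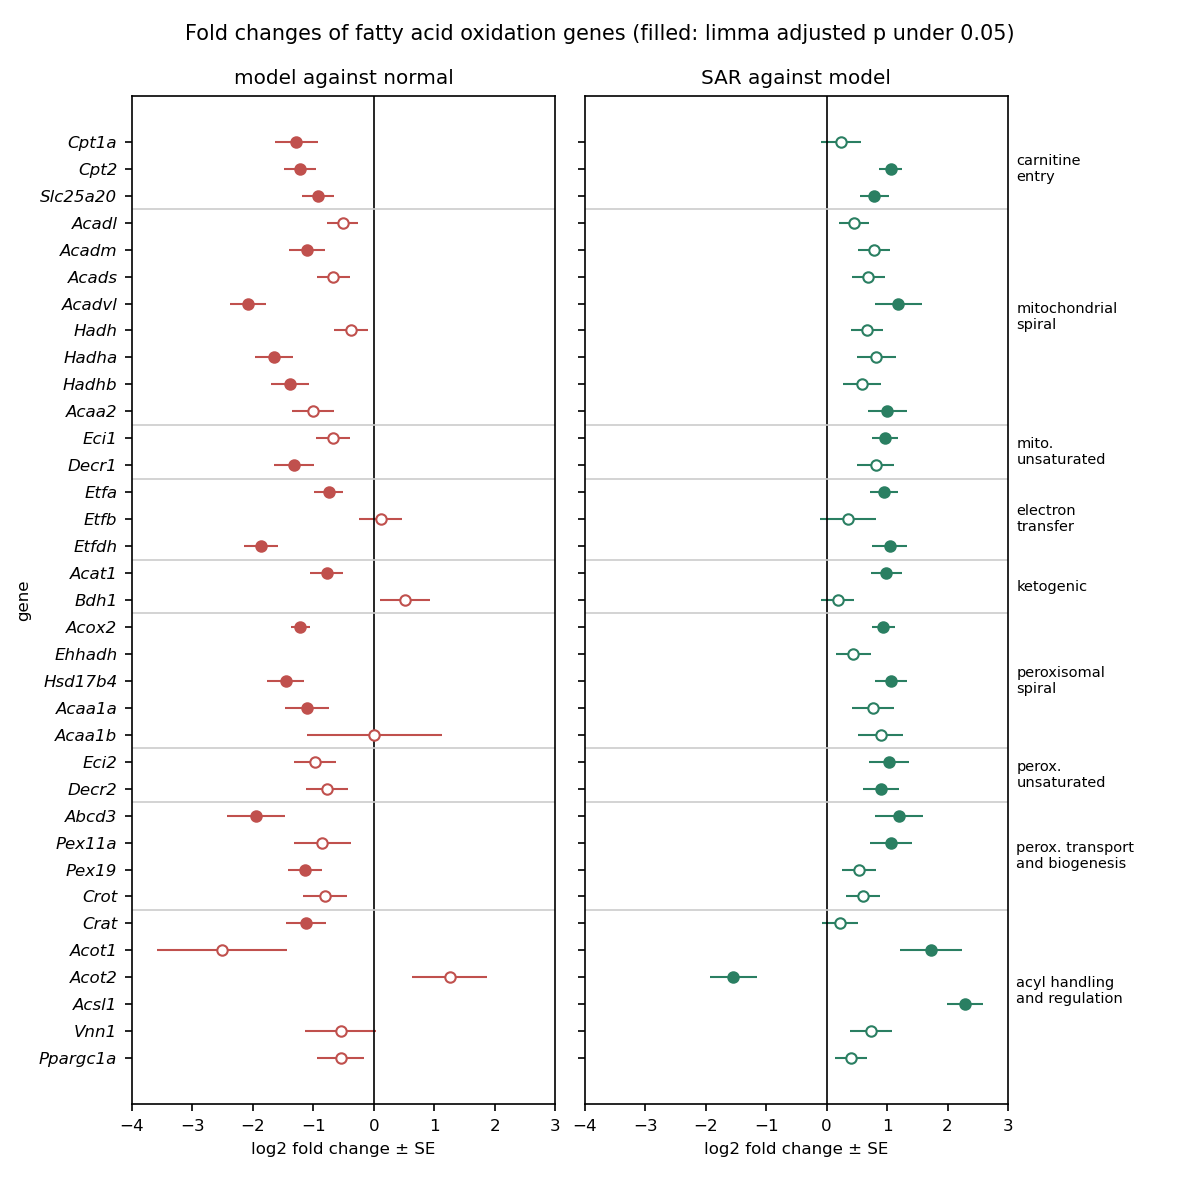
Log2 fold change with its standard error for each member in model against normal (left, 33 members) and SAR against model (right, 35 members), 3 libraries per group, filled where the limma adjusted p was under 0.05. Of the members, 17 are filled and negative on the left, and 16 are filled and positive and Acot2 filled and negative on the right.

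Transcripts for all 3 steps of entry into mitochondria fell in model liver. Cpt1a (ENSMUSG00000024900), the outer membrane carnitine palmitoyltransferase that controls entry, stood at 5105, 6381 and 7678 normalised reads in SAR libraries a, b and c, 3810, 4729 and 8752 in model libraries and 13205, 14576 and 11679 in normal libraries. Both MCD groups lay entirely below the normal libraries, and they overlapped each other. The log2 fold change was -1.28 in model against normal (SE 0.36, limma adjusted p = 0.0254, up to 0.111 with a library left out) and 0.24 in SAR against model (SE 0.33, adjusted p = 0.6). Cpt1a was also the 1 member of 33 that differed between SAR and normal liver, at -1.06 (SE 0.21, adjusted p = 0.0386), against 1.83% of all 11604 genes lower and 1.71% higher. That call held without normal library c and was lost without any other of the 6 libraries, with an adjusted p of up to 0.123.

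Cpt2 (ENSMUSG00000028607), the inner membrane enzyme that turns acylcarnitines back into acyl-CoA, stood at 2649, 2740 and 3367 normalised reads in SAR libraries, 1197, 1404 and 1678 in model libraries and 4027, 3938 and 2252 in normal libraries. All model values were below all values of the other groups. Its log2 fold change was -1.22 in model against normal (SE 0.26, limma adjusted p = 0.0105) and 1.06 in SAR against model (SE 0.19, adjusted p = 0.00524). Slc25a20 (ENSMUSG00000032602), the carnitine-acylcarnitine carrier between them, had 2759, 2909 and 3379 normalised reads in SAR, 1367, 1594 and 2517 in model and 3586, 3913 and 2656 in normal libraries. It was lower in model than in normal liver by log2 -0.92 (SE 0.27, adjusted p = 0.0298, up to 0.108 with a library left out). It was higher in SAR than in model liver by log2 0.79 (SE 0.24, adjusted p = 0.0362, up to 0.133 and held only without model library c). Of these 3 genes in sequence, Cpt1a alone did not pass in SAR against model; the difference between it and the other two was not tested.

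Within the mitochondrial spiral, Acadvl, Hadha and Hadhb had the 3 largest differences between model and normal liver. Acadvl (ENSMUSG00000018574), the very long-chain acyl-CoA dehydrogenase, stood at 801, 1949 and 1954 normalised reads in SAR libraries, 567, 457 and 1040 in model libraries and 2973, 2845 and 2399 in normal libraries. Model and normal values did not overlap, and SAR library a lay among the model values. Its log2 fold change was -2.08 in model against normal (SE 0.29, limma adjusted p = 0.00277) and 1.19 in SAR against model (SE 0.39, adjusted p = 0.0495, up to 0.172 with a library left out). The annotated exons of Acadvl share 42.9% of their bases with Dvl2 on the opposite strand, and no strand setting of the read counting is given in the sources used here. Acadm (ENSMUSG00000062908), the medium-chain dehydrogenase, had 5781, 7714 and 7912 normalised reads in SAR, 3158, 4023 and 5681 in model and 10563, 9688 and 7073 in normal libraries. It fell in model against normal by log2 -1.11 (SE 0.30, adjusted p = 0.0226, up to 0.0919 with a library left out). In SAR against model it had a log2 fold change of 0.78 that did not pass (SE 0.27, adjusted p = 0.0561), although the groups did not overlap.

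Hadha and Hadhb encode the alpha and beta subunits of the trifunctional protein, which carries out the last 3 steps of the spiral on long chains. Hadha (ENSMUSG00000025745) stood at 2574, 3698 and 4791 normalised reads in SAR libraries, 1548, 1737 and 3194 in model libraries and 7596, 7122 and 4902 in normal libraries. Hadhb (ENSMUSG00000059447) had 1685, 2545 and 3162 in SAR, 1184, 1416 and 2523 in model and 4711, 5005 and 3191 in normal libraries. For both genes every SAR and every model library was below every normal library, and the SAR and model values overlapped. In model against normal the log2 fold change was -1.65 for Hadha (SE 0.32, limma adjusted p = 0.0076) and -1.39 for Hadhb (SE 0.32, adjusted p = 0.013, up to 0.0577 without normal library a or model library b). In SAR against model neither passed, at 0.82 (SE 0.32, adjusted p = 0.0796) and 0.58 (SE 0.32, adjusted p = 0.193). Against normal liver, SAR liver had log2 fold changes of -0.85 for Hadha (SE 0.26, adjusted p = 0.0988) and -0.82 for Hadhb (SE 0.26, adjusted p = 0.104), which also did not pass.

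The 2 subunit genes lie head to head on chromosome 5, with annotated start sites 273 bases apart, so that their promoter windows share 228 bases. The window of Hadhb is printed because most of it lies between the start sites of 2 genes that were both lower in model liver. It is from RefSeq (GRCm38.p6, chr5:30155003-30155302, plus strand) and runs from 250 bases before to 50 bases after the start. Capitals mark matches to GGGCGG on either strand, of which it holds 4.
Hadhb: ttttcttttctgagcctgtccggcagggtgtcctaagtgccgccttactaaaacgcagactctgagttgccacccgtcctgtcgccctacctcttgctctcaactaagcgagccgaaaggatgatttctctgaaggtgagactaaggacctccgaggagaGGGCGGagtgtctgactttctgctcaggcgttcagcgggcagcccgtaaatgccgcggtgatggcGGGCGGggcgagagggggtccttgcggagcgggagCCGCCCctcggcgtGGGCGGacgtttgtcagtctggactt
Of the 35 members, 28 had such a window in the RefSeq table. GGGCGG, the GC box, was present on either strand in 20 of 28 members (71.4%) and in 38.2% of 27025 genes. Hadha and Hadhb, whose windows share 228 bases, are both counted, and the 27025 genes are not limited to those read in liver. CCAAT was present in 14 members (50%) and 41.1% of genes, and TATAAA in 0 members and 15.7% of genes. The nuclear receptor half-site AGGTCA was found in Acadm, Acadvl and Cpt1a (10.7%) against 18.1% of genes, and its direct repeat AGGTCANAGGTCA in 0 members against 0.0481% of genes. These letters were searched for exactly on both strands of these short windows, matches may overlap each other, and they are a description and not sites.

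Of the remaining 4 genes of the mitochondrial spiral, only Acaa2 passed in either comparison. Acaa2 (ENSMUSG00000036880), the mitochondrial thiolase, stood at 10346, 11993 and 14189 normalised reads in SAR libraries, 4516, 5276 and 9559 in model libraries and 13714, 13244 and 10252 in normal libraries. Model values lay below those of both other groups without overlap. The log2 fold change was -1.01 in model against normal and just missed the threshold (SE 0.35, limma adjusted p = 0.052), and it was 1.004 in SAR against model (SE 0.32, adjusted p = 0.0459, up to 0.175 and held only without model library c). Acadl, Acads and Hadh, the long-chain and short-chain dehydrogenases and the 3-hydroxyacyl-CoA dehydrogenase for shorter chains, passed in neither comparison. Their log2 fold changes were -0.52, -0.67 and -0.38 in model against normal and 0.46, 0.69 and 0.66 in SAR against model, and SAR and model values overlapped for each. Per kilobase of annotated exon, Acaa2 had the highest level of the 33 recovered members in normal liver, 8182 normalised reads per kilobase, followed by the peroxisomal thiolase Acaa1b at 8070, whose normal libraries differ widely. Ehhadh was not recovered in normal libraries and stands outside this ranking. Its deposited normal mean was 36051 over 2981 bases of annotated exon, against 13783 over 1516 bases for Acaa2.

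Unsaturated fatty acids need auxiliary enzymes to move or reduce double bonds, and each organelle has its own pair. In mitochondria, Eci1 (ENSMUSG00000024132), an enoyl-CoA isomerase, had 3079, 2910 and 3072 normalised reads in SAR, 1254, 1409 and 2173 in model and 3036, 2909 and 1768 in normal libraries. The SAR values were close together and above all model values, and the log2 fold change was 0.97 (SE 0.22; limma adjusted p = 0.0128, 0.0632 without model library b). Model against normal did not pass, at -0.68 (SE 0.29, adjusted p = 0.0942), and normal library c lay among the model values. Decr1 (ENSMUSG00000028223), the mitochondrial dienoyl-CoA reductase, had 2685, 3402 and 4000 normalised reads in SAR, 1405, 1604 and 3128 in model and 5575, 5446 and 3632 in normal libraries. It fell in model against normal by log2 -1.32 (SE 0.33, adjusted p = 0.0183, up to 0.0771 with a library left out) and had 0.81 in SAR against model (SE 0.30, adjusted p = 0.0725).

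In peroxisomes, Eci2 (ENSMUSG00000021417) had 3321, 3127 and 3926 normalised reads in SAR, 1296, 1230 and 3143 in model and 3324, 3562 and 3187 in normal libraries. Decr2 (ENSMUSG00000036775) had 4363, 5042 and 5481 in SAR, 2084, 2113 and 4379 in model and 5452, 5481 and 3220 in normal libraries. For both, model libraries a and b were far below every other library and model library c reached the range of the SAR group. Both were higher in SAR than in model liver, Eci2 by log2 1.03 (SE 0.33, limma adjusted p = 0.0468) and Decr2 by 0.90 (SE 0.30, adjusted p = 0.048). With a library left out these p-values rose to 0.173 and 0.183, and both calls held only without model library c. In model against normal they were -0.97 (SE 0.35, adjusted p = 0.059) and -0.78 (SE 0.35, adjusted p = 0.116). SAR and normal liver were close for both, at 0.04 (SE 0.15) and 0.11 (SE 0.23).

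Electrons of the first step of the mitochondrial spiral pass through the electron transfer flavoprotein, of Etfa and Etfb, to its dehydrogenase Etfdh in the respiratory chain. Etfdh (ENSMUSG00000027809) stood at 2383, 3849 and 3890 normalised reads in SAR libraries, 1229, 1440 and 2401 in model libraries and 6585, 6462 and 4834 in normal libraries. Model and normal values did not overlap, all SAR values were below all normal values, and SAR library a lay just below model library c. Its log2 fold change was -1.87 in model against normal (SE 0.28, limma adjusted p = 0.0035), 1.04 in SAR against model (SE 0.29, adjusted p = 0.0276, up to 0.105 with a library left out) and -0.84 in SAR against normal (SE 0.23, adjusted p = 0.0776). Etfa (ENSMUSG00000032314) had 6166, 6639 and 6587 normalised reads in SAR, 2574, 3664 and 4176 in model and 6093, 5787 and 5265 in normal libraries. Every model value was below, and every SAR value above, every normal value. Etfa fell in model against normal by log2 -0.75 (SE 0.24, adjusted p = 0.0397, up to 0.128 with a library left out) and rose in SAR against model by 0.95 (SE 0.23, adjusted p = 0.0169, up to 0.0673 likewise). Etfb was listed at only 21.8 to 72.8 normalised reads in any library, 53% of its annotated exon bases lie on the same strand in Gm45233, and its level is therefore uncertain.

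**Figure D3:**
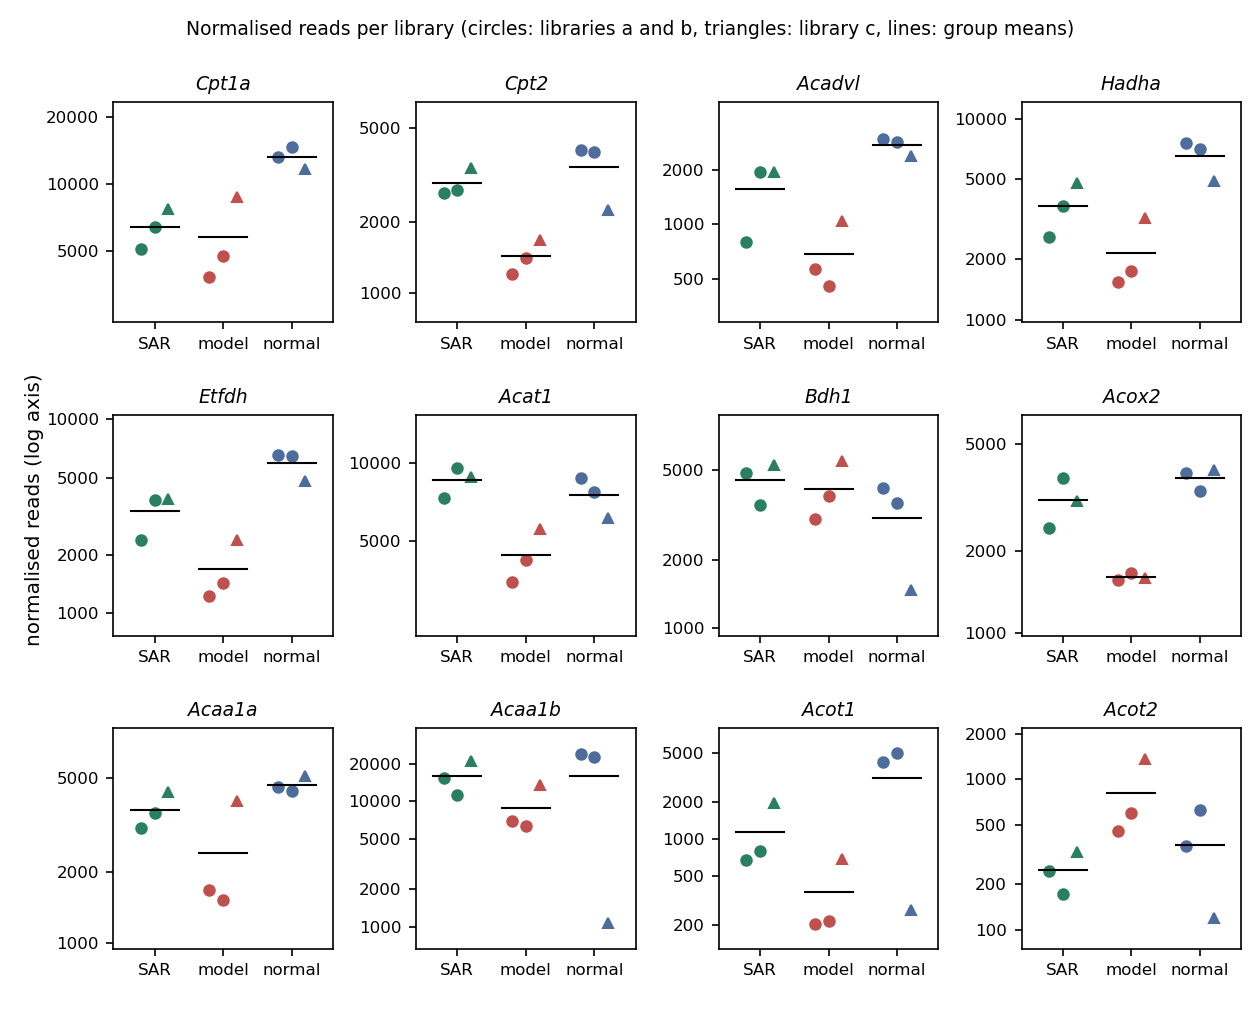
Normalised reads per library on log axes for 12 members in SAR, model and normal liver, with circles for libraries a and b, triangles for library c and lines for the means of 3 libraries. Acox2 shows 3 model libraries between 1563 and 1659, below every other library, whereas Acaa1b and Acot1 in normal library c, at 1070 and 262, lie far below normal libraries a and b.

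Of the 2 ketogenic members, Acat1 passed the test in both comparisons and Bdh1 in neither; the difference between them was not tested. Acat1 (ENSMUSG00000032047), the mitochondrial acetoacetyl-CoA thiolase, stood at 7280, 9509 and 8814 normalised reads in SAR libraries, 3463, 4222 and 5565 in model libraries and 8712, 7736 and 6123 in normal libraries. Model values were below those of both other groups without overlap. Its log2 fold change was -0.78 in model against normal (SE 0.27, limma adjusted p = 0.0499, up to 0.166 with a library left out) and 0.99 in SAR against model (SE 0.25, adjusted p = 0.0193, up to 0.0876 likewise). Bdh1 (ENSMUSG00000046598), which interconverts the ketone bodies acetoacetate and beta-hydroxybutyrate, had 4872, 3492 and 5286 normalised reads in SAR, 3053, 3838 and 5500 in model and 4166, 3578 and 1475 in normal libraries. The groups overlapped in each comparison, and the lowest value was that of normal library c. Bdh1 had a log2 fold change of 0.52 in model against normal (SE 0.41, adjusted p = 0.345) and 0.18 in SAR against model (SE 0.27, adjusted p = 0.635). Without normal library c and model library c together, the first of these was -0.18.

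Outside the members, Oxct1, which uses ketone bodies and is scarcely made in hepatocytes, had a mean of 63.5 ± 5.02 normalised reads in SAR, 205 ± 24.8 in model and 54.0 ± 10.5 in normal liver (SD, n = 3 each). It rose in model liver (log2 1.92, SE 0.21, limma adjusted p = 0.00151) and fell in SAR against model (log2 -1.65, SE 0.19, adjusted p = 0.00109). The macrophage, stellate and cholangiocyte marker sums moved between groups in the same directions. In model libraries a, b and c Oxct1 stood at 231, 182 and 203. The macrophage sums there were 23230, 21026 and 20678, the stellate sums 24755, 22030 and 6939, and the cholangiocyte sums 9531, 10831 and 1980. The part of these cell types in the Oxct1 values was not tested.

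Transcripts of the first and second peroxisomal enzymes for branched chains and bile acid intermediates were lower in model liver. Acox2 (ENSMUSG00000021751), the branched-chain acyl-CoA oxidase, stood at 2447, 3722 and 3079 normalised reads in SAR libraries, 1563, 1659 and 1597 in model libraries and 3894, 3335 and 3984 in normal libraries. Unlike most members it was neither high in model library c nor low in normal library c, and model values lay below all others. Its log2 fold change was -1.22 in model against normal (SE 0.16, limma adjusted p = 0.00214) and 0.94 in SAR against model (SE 0.19, adjusted p = 0.0086), and both calls held whichever library was left out. Hsd17b4 (ENSMUSG00000024507), the D-bifunctional protein of the next 2 steps, had 5025, 5935 and 7328 normalised reads in SAR, 2328, 2570 and 4108 in model and 9415, 9226 and 5842 in normal libraries. No model value reached the range of either other group. It was lower in model than in normal liver by log2 -1.46 (SE 0.31, adjusted p = 0.00968, 0.0513 without model library b) and higher in SAR than in model liver by 1.07 (SE 0.26, adjusted p = 0.0177, up to 0.085 with a library left out).

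Ehhadh (ENSMUSG00000022853), the L-bifunctional protein of straight chains, had 7758, 8755 and 11261 normalised reads in SAR and 5570, 5993 and 9497 in model libraries. SAR against model did not pass, at log2 0.44 (SE 0.29, limma adjusted p = 0.268), and model library c lay among the SAR values. In the authors' deposited table Ehhadh had means of 7793 in model and 36051 in normal liver, a log2 difference of -2.21 with an adjusted p of 0.123.

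The last step of the peroxisomal spiral is carried out by the thiolases Acaa1a and Acaa1b. Their open reading frames were identical at 96.5% of aligned bases, so reads of either copy could be assigned to the other. Acaa1a (ENSMUSG00000036138) had 3079, 3544 and 4371 normalised reads in SAR, 1679, 1513 and 4008 in model and 4564, 4388 and 5081 in normal libraries. It was lower in model than in normal liver by log2 -1.11 (SE 0.36, limma adjusted p = 0.0434), a call held only without model library c, and up to 0.156 otherwise. Acaa1b (ENSMUSG00000010651) had 15312, 11285 and 20956 in SAR, 6952, 6325 and 13420 in model and 23941, 22488 and 1070 in normal libraries. Normal library c held the lowest of the 9 values of Acaa1b and the highest of the 9 values of Acaa1a. The log2 fold change of Acaa1b in model against normal was 0.01 (SE 1.12, adjusted p = 0.996), and without normal library c it was -1.47 (adjusted p = 0.0329). In SAR against model the log2 fold changes were 0.76 for Acaa1a (SE 0.35, adjusted p = 0.128) and 0.89 for Acaa1b (SE 0.38, adjusted p = 0.102).

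The promoter windows of this near-identical pair, on chromosome 9, are printed because the reads assigned to them differed in normal library c. Both are from RefSeq and GRCm38.p6, 250 bases before to 50 after the start, Acaa1a at chr9:119341044-119341343 on the plus strand and Acaa1b at chr9:119157044-119157343 on the minus strand. Capitals mark GGGCGG or CCAAT on either strand, and 2 CCAAT matches of Acaa1b overlap.
Acaa1a: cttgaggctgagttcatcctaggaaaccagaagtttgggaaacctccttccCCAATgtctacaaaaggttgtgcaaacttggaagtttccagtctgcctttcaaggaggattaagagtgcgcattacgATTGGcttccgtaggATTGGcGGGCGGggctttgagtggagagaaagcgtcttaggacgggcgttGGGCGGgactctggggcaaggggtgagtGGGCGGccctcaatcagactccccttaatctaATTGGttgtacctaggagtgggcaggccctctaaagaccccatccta
Acaa1b: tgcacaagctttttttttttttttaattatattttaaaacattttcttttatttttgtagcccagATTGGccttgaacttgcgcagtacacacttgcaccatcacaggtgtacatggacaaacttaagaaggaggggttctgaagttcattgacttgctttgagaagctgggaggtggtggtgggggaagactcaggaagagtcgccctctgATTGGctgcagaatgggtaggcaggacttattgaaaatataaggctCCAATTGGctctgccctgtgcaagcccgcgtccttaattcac
The window of Acaa1a holds 3 matches to GGGCGG and 4 to CCAAT, and that of Acaa1b 0 and 4.

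Transport into and assembly of peroxisomes were represented by 4 members. Abcd3 (ENSMUSG00000028127), a peroxisomal membrane transporter of acyl-CoA, had 3665, 5080 and 6597 normalised reads in SAR, 1464, 1721 and 4245 in model and 10677, 11678 and 4927 in normal libraries. Model and normal values did not overlap, although library c of each group lay closest to the other. Its log2 fold change was -1.95 in model against normal (SE 0.48, limma adjusted p = 0.0169, up to 0.071 with a library left out) and 1.19 in SAR against model (SE 0.39, adjusted p = 0.0486, up to 0.164 and held only without model library c). Pex19 (ENSMUSG00000003464), which carries membrane proteins to peroxisomes, had 1050, 1319 and 1499 in SAR, 703, 701 and 1426 in model and 2022, 2070 and 1791 in normal libraries. It fell in model against normal by log2 -1.14 (SE 0.28, adjusted p = 0.0166, up to 0.0689 with a library left out) and had 0.54 in SAR against model (SE 0.28, adjusted p = 0.172).

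Pex11a (ENSMUSG00000030545), which promotes peroxisome division and is a PPARalpha target in mice, had 3135, 2622 and 3553 normalised reads in SAR, 1071, 1101 and 2827 in model and 3169, 4031 and 1526 in normal libraries. Model libraries a and b were the lowest of the 9, followed by normal library c. It was higher in SAR than in model liver by log2 1.06 (SE 0.35, limma adjusted p = 0.048, up to 0.171 and held only without model library c), and model against normal did not pass at -0.85 (SE 0.47, adjusted p = 0.181). Crot (ENSMUSG00000003623), which exports shortened chains as carnitine esters, passed in neither comparison, with means of 11937 ± 2066 in SAR, 8030 ± 1688 in model and 14452 ± 4899 in normal liver (SD, n = 3 each). It was the 1 member of 35 whose lowest model value was in library c, at 6776 normalised reads.

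Activation and thioester handling held both the largest rise in SAR liver and the 1 fall. Acsl1 (ENSMUSG00000018796), the main long-chain acyl-CoA synthetase of liver, had 16770, 18380 and 23634 normalised reads in SAR and 3141, 3750 and 5499 in model libraries. The groups were far apart, and the log2 fold change was 2.29 (SE 0.29; limma adjusted p = 0.00147) that held whichever library was left out. In the authors' deposited table Acsl1 had means of 4585 in model and 30272 in normal liver (log2 -2.72, adjusted p = 0.0352). Crat (ENSMUSG00000026853), carnitine acetyltransferase, had 909, 837 and 1355 normalised reads in SAR, 652, 736 and 1412 in model and 1991, 2563 and 1363 in normal libraries. It was lower in model than in normal liver by log2 -1.12 (SE 0.34, adjusted p = 0.0335, up to 0.119 with a library left out), although model library c was above normal library c. SAR against model gave 0.22 (SE 0.30, adjusted p = 0.597), so that, like Cpt1a, Crat did not pass there.

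Acot1 and Acot2 are near copies, identical at 95.5% of aligned bases of their open reading frames, that encode a cytosolic and a mitochondrial acyl-CoA thioesterase. Acot1 (ENSMUSG00000072949) had 669, 789 and 1966 normalised reads in SAR, 204, 214 and 680 in model and 4192, 4955 and 262 in normal libraries. Acot2 (ENSMUSG00000021226) had 247, 172 and 331 in SAR, 451, 599 and 1363 in model and 358, 620 and 120 in normal libraries. In SAR against model, Acot1 was higher by log2 1.73 (SE 0.51, limma adjusted p = 0.0341, up to 0.118 with a library left out) and Acot2 lower by log2 -1.55 (SE 0.39, adjusted p = 0.0186, 0.08 without SAR library b). Every SAR value of Acot2 was below every model value, whereas the Acot1 values of the 2 groups overlapped at 1 library. Neither passed in model against normal, at -2.51 (SE 1.08, adjusted p = 0.0987) and 1.26 (SE 0.62, adjusted p = 0.139), and normal library c was the lowest normal library for both. Reads of such copies could be assigned to either gene, so the opposite directions are given with that limit.

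Vnn1, a pantetheinase and PPARalpha target, did not pass in either comparison, at -0.55 (SE 0.59) and 0.74 (SE 0.35), and its normal libraries ran from 676 in library c to 3018 in library b. Ppargc1a (ENSMUSG00000029167), the coactivator PGC-1alpha, had 226, 358 and 253 normalised reads in SAR, 174, 174 and 305 in model and 186, 289 and 537 in normal libraries. The groups overlapped, and its log2 fold changes were -0.55 in model against normal (SE 0.39, limma adjusted p = 0.29) and 0.40 in SAR against model (SE 0.26, adjusted p = 0.271). In normal library c, where most members were lowest, Ppargc1a was at its highest.

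Mitochondrial and peroxisomal members were called in similar shares, and the difference between compartments was not tested. In model against normal, 10 of 16 mitochondrial members, 5 of 10 peroxisomal members, 1 of 2 ketogenic members and 1 of 5 members of acyl handling and regulation were lower, with median log2 fold changes of -1.06, -1.04, -0.13 and -0.55, against 19.1% of all genes lower. In SAR against model, 7 of 16, 6 of 11, 1 of 2 and 2 of 6 were higher, with medians of 0.80, 0.90, 0.58 and 0.57, against 13.2% of all genes higher. The last 2 groups hold too few members to read against these shares. The median of the 16 mitochondrial members against the normal mean was -0.32, -0.21 and -0.08 in SAR libraries a, b and c, -1.45, -1.19 and -0.52 in model libraries and 0.16, 0.13 and -0.30 in normal libraries. For the 10 peroxisomal members recovered throughout it was -0.34, -0.15 and -0.11 in SAR, -1.35, -1.37 and -0.34 in model and 0.24, 0.23 and -0.48 in normal libraries. Thus the mitochondrial medians of the model libraries lay below all others, whereas the peroxisomal median of model library c lay above that of normal library c. SAR and normal liver differed in 1 of 33 members, Cpt1a, and the median log2 fold change was -0.18. At an unadjusted limma p under 0.05, 8 members were lower (Cpt1a, Acadvl, Hadha, Hadhb, Decr1, Etfdh, Pex19 and Crat) and 0 higher, against 13.5% of all genes lower. All 3 SAR libraries lay below all 3 normal libraries for 8 members, as they did for 17.4% of all genes. A test that misses the threshold does not show that the groups were alike. Without normal library c, 9 members were lower in SAR than in normal liver, against 4.8% of all genes.

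**Figure D4:**
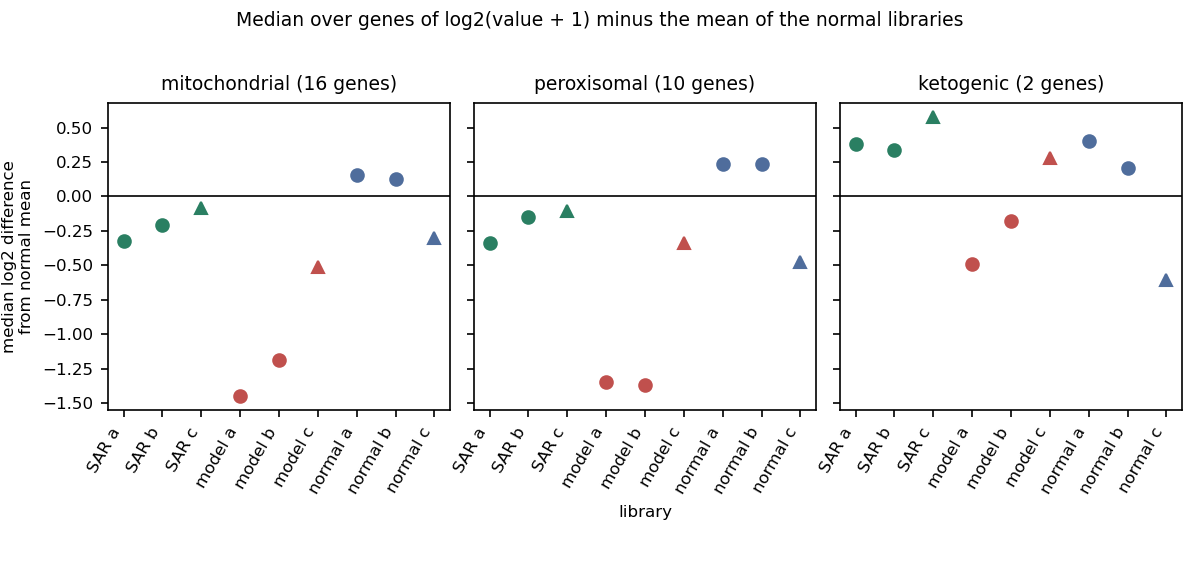
Median, over the 16 mitochondrial, 10 peroxisomal and 2 ketogenic members recovered in all 9 libraries, of log2(normalised reads + 1) minus the mean of the normal libraries, by library, with triangles for library c. Model libraries a and b lie lowest in the mitochondrial and peroxisomal panels, and normal library c lies lowest in the ketogenic panel.

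Further genes of the same pathways, from lists chosen with earlier results known, are given for setting, and their counts stand against 19.1% of all genes lower in model against normal and 13.2% higher in SAR against model. Of 19 other mitochondrial oxidation genes tested, 15 were lower in model against normal and 11 were higher in SAR against model. Hsd17b10, a mitochondrial hydroxyacyl-CoA dehydrogenase, had log2 fold changes of -2.03 (SE 0.29, limma adjusted p = 0.00303) and 1.51 (SE 0.30, adjusted p = 0.00792) in the 2 comparisons. Of 16 and 17 other peroxisomal genes tested, 9 were lower in model against normal and 10 higher in SAR against model. Nudt7, a peroxisomal coenzyme A diphosphatase, had 2625, 1347 and 2707 normalised reads in SAR, 359, 372 and 765 in model and 2861, 3629 and 907 in normal libraries. Its log2 fold changes were -2.18 (SE 0.53, adjusted p = 0.016, up to 0.0674 with a library left out) and 2.20 (SE 0.35, adjusted p = 0.00325).

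Of 14 further peroxins, the proteins that build the organelle, 10 were lower in model against normal and 9 higher in SAR against model. The shares of all genes were 19.1% lower and 13.2% higher. Pex26, an anchor of the protein import machinery, had means of 305 ± 43.0 in SAR, 156 ± 38.1 in model and 421 ± 29.9 in normal liver (SD, n = 3 each), with log2 fold changes of -1.46 (SE 0.21, limma adjusted p = 0.00283) and 1.0 (SE 0.22, adjusted p = 0.011). Among 13 regulators, 6 were lower in model against normal and 5 higher in SAR against model, beside the same shares of all genes. Ppara had 562, 610 and 761 normalised reads in SAR, 238, 160 and 462 in model and 971, 905 and 481 in normal libraries. Its model values lay below those of both other groups, at log2 -1.53 against normal (SE 0.41, adjusted p = 0.0232, up to 0.0831 with a library left out), and SAR was higher than model by 1.32 (SE 0.33, adjusted p = 0.0195, up to 0.0721 likewise). Rxra, its partner receptor, had -1.54 (SE 0.27, adjusted p = 0.00581) and 0.97 (SE 0.26, adjusted p = 0.0254, up to 0.103 with a library left out).

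Of 15 other PPARalpha targets, 12 were tested. In model against normal 2 were lower and 3 higher, close to the 19.1% and 20% of all genes. Between SAR and model liver 4 were lower and 3 higher, against 16.2% and 13.2% of all genes. The other 3, Cyp4a10, Cyp4a14 and Fabp1, named here after their values were seen, could not be split between libraries. In the authors' deposited table the fatty acid hydroxylases Cyp4a10 and Cyp4a14 were lower in model than in normal liver, at log2 -2.82 (adjusted p = 0.00252) and -2.80 (adjusted p = 5.56e-05). For SAR against model the authors' deposited table called Cyp4a10 higher (log2 2.20, adjusted p = 1.39e-06) and gave Cyp4a14 1.69 (adjusted p = 0.0895), and Fabp1, the liver fatty acid binding protein, passed in neither comparison. Fgf21, a secreted fasting hormone, had means of 169 ± 113 in SAR, 580 ± 140 in model and 142 ± 66.7 in normal liver (SD, n = 3 each), and it rose in model liver (log2 2.14, SE 0.40, limma adjusted p = 0.00675) and fell in SAR against model (log2 -1.92, SE 0.40, adjusted p = 0.00943). Pdk4, a kinase that restrains glucose oxidation, had log2 fold changes of 1.6 (SE 0.50, adjusted p = 0.0371) and -2.70 (SE 0.39, adjusted p = 0.00237), and the first of these held, with 1 library left out, only without normal library b (adjusted p otherwise up to 0.105). Cidec, a lipid droplet protein, fell in SAR against model by log2 -2.69 (SE 0.23, adjusted p = 0.000352), with 298, 194 and 273 normalised reads in SAR and 1296, 1597 and 2172 in model libraries.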

How the data were processed

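The authors deposited 2 tables, model with normal and SAR with model, and neither gives single samples. Per the file headers, the deposited signal is a group's mean read count over DESeq size factors. The deposited fold is a ratio of such means, with its log2 beside it, per the file headers. The p-values the authors deposited, raw and adjusted, came from DESeq, per the file headers and table names. Per the submitters' processing notes, reads were placed on mm9. Which aligner, counter and strand setting the authors used was not given in the sources used here.

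Since a group mean adds up whole reads of 3 libraries, each weighted by its library's size factor, and is printed with about 15 digits, the reads per library were solved for. Model reads, solved from either table alone, were identical for 15917 of 15917 genes. Normal reads solved from the group mean alone equalled those solved with fold and overall mean for 13417 of 13419 genes. SAR reads did so for 13667 of 13667. Of 2000 low means of the normal group moved by a tiny amount 0 could be solved, against 2000 of 2000 unmoved. That check did not cover means as high as those of most members. Of 16521 genes, 16423 were recovered in all 9 libraries. The libraries could not be tied to replicate numbers. Symbols came from a reference table that named 16490 of 16521 IDs.

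Each comparison was fitted over all genes with limma 3.58.1 in R 4.3.3, with a trended variance on log2(value + 1), where a value is reads over the authors' size factors, or over medians of ratios for SAR against normal. Genes with a mean of at least 10 were tested, two-sided, with Benjamini-Hochberg adjustment and a threshold of 0.05. Values per library are on a scale common to the 9 libraries, on which members' log2 fold changes differ from the fitted ones by at most 0.0204. The fit was tested on simulated data. Exon lengths and overlaps came from GENCODE annotation of GRCm38, and promoter windows from RefSeq. Members, lists and named genes (all members by role, values per library for each member past the threshold and for Acat1, Bdh1 and Ppargc1a, and of each other list but the ketone body genes the count, and at most the 3 largest changes, plus Ppara and 3 genes not reported here) were chosen with earlier results of these data known. Exact permutation of 3 against 3 libraries cannot give a p below 0.1 and was not run. The alternatives were other pseudocounts (0.5 and 5), filters (none and 50), TMM factors, no variance trend, voom weights, 1 fit of 9 libraries, each library left out and the authors' test.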

Additional observations from a re-analysis of the deposited data

How the results depend on the processing

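Counts of members depended most on single libraries, and the cause was not tested. With 1 library left out in turn, 5 to 25 members were lower in model against normal, 3 to 29 higher and 0 to 1 lower in SAR against model, and 0 to 9 lower in SAR against normal. Without normal library c and model library c together, 29 were lower in model against normal, against 28.1% of all genes. The shares of all genes moved too. In model against normal, 9.49% were lower without model library b, where 5 members were. In SAR against model, 5.1% were higher without model library b (3 members) and 20.5% without model library c (29 members). In SAR against normal, 4.8% were lower without normal library c (9 members). In SAR against model, 10 were higher with no filter on low values, 10 with TMM factors and 7 with no trend in the variance. The shares of all genes under these settings are not given here, so these counts alone do not set the members apart from other genes. The 1 lower member there became 0 with no trend, with all 9 libraries in 1 fit and in the authors' deposited test, as did the 1 lower in SAR against normal with no filter, no trend and 1 fit. All other settings, voom and other pseudocounts among them, stayed within 1.5 times of each count.

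Among single genes, log2 fold changes changed sign as follows. In model against normal, Acaa1b was -0.023 with TMM factors, -1.81 without both libraries c and -0.83 in the authors' table, and -1.47 to 0.77 with 1 library left out. Without both libraries c, Etfb was -0.041 and Bdh1 -0.18, and Etfb ran from -0.12 to 0.30 with 1 left out. With 1 left out in SAR against model, Cpt1a ran from -0.011 to 0.59, Etfb from -0.083 to 0.76 and Bdh1 from -0.017 to 0.41. In SAR against normal, Acads was -0.0082 with TMM factors and ran from -0.13 to 0.17, Acaa2 from -0.16 to 0.088, Acaa1b from -0.60 to 1.64, Eci2 from -0.058 to 0.10, Decr2 from -0.15 to 0.23, Pex11a from -0.22 to 0.48, Acot2 from -0.96 to 0.21, Vnn1 from -0.51 to 0.56 and Ppargc1a from -0.53 to 0.23.

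Limits are few libraries per group, 2 libraries that stand apart, many adjusted p-values near the threshold and 2 members not recovered in normal liver. The pseudocount shrinks fold changes of thinly covered genes, such as Etfb. No paired analysis was possible because the recovered libraries carry no replicate number.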
